A study of Mus musculus with 6 samples.

Results

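The genes of cytotoxic granules were followed in lung RNA of smoke-exposed mice. The 9 genes, of 57180 rows in the table, were found by symbol: the granzymes Gzma, Gzmb, Gzmk and Gzmm, the pore protein gene Prf1, the granule membrane and matrix genes Nkg7 and Srgn, and the serpin genes Serpinb9 and Serpinb6b. They were chosen by their role in granules at a time when the fold changes in normalised read count (CPM) between the study's groups were already known, so those differences are given as a description and support nothing further. All 9 passed the filter on low counts, among 16989 genes tested. The data came from 6 libraries of polyadenylated lung RNA, 3 from wild-type mice and 3 from mice overexpressing FTO, an enzyme that removes methyl groups from N6-methyladenosine in RNA. Both groups carried the same exposure to cigarette smoke, and unexposed lungs were not analysed here. The labels name the genotypes only as WT and FTO_OE; strain, age, length of exposure and the way FTO was overexpressed are not given there, and neither is the number of mice behind a library. P-values therefore measure the spread between these 6 samples, which may be technical.

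Cytotoxic T cells and natural killer (NK) cells kill by releasing the content of specialised lysosomes onto a target cell. Perforin opens the target's membrane, and granzymes, which are serine proteases, enter and cleave proteins that start cell death. Serglycin, the proteoglycan encoded by Srgn, holds the proteases in the granule, and intracellular serpins protect the killer cell and its neighbours from granzymes that escape. In lung these cells clear infected and damaged cells, and in bulk tissue RNA more such cells and more RNA per cell cannot be told apart.

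The libraries held 16731850 to 21444907 counts. Fto was at 66.2 to 69.9 CPM in the wild-type and 650.1 to 740.8 CPM in the overexpressing libraries, as labelled. Lung markers were present throughout: the summed level of 6 epithelial markers was 44460 to 49540 CPM in wild-type and 34970 to 42280 CPM in overexpressing libraries. Every overexpressing library thus lay below every wild-type one. Singly, Sftpb and Sftpa1 were lower without overlap. Scgb1a1 and Sftpc, which made up most of the sum, overlapped, as did Ager and Epcam. The part of this difference in the CPM of the granule genes was not tested. No pair of libraries was close enough in counts to be a duplicate.

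The promoters of the 5 genes whose groups separated, and that of Serpinb9 as a gene that did not, are printed from RefSeq (GRCm38.p6), each from 250 bases before to 50 bases after the annotated start; the build behind the deposited table is not given in the sources used here. All 9 genes had an entry, with 11 windows in all. Capitals mark matches, on either strand, to 4 motifs of factor families active in cytotoxic lymphocytes: RUNX (TGTGGT), T-box (GGTGTGA), AP-1 (TGANTCA, which reads alike on both strands) and ETS (GGAAGT). The motifs and the genes printed were chosen after the expression values were seen, and no match overlapped a match to another of these motifs in the windows of these genes.
Gzma promoter (chr13:113100932-113101231, minus strand): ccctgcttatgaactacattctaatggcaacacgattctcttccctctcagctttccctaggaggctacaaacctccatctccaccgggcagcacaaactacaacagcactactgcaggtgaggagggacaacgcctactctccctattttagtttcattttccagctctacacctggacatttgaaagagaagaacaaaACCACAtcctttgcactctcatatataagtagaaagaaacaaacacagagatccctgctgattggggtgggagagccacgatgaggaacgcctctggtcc
Gzmb promoter (chr14:56262285-56262584, minus strand): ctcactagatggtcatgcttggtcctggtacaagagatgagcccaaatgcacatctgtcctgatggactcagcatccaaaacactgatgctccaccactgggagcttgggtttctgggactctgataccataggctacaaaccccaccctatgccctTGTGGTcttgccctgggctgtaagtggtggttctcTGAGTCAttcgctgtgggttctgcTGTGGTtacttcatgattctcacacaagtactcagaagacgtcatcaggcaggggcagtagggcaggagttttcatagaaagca
Gzmk promoter (chr13:113180916-113181215, minus strand): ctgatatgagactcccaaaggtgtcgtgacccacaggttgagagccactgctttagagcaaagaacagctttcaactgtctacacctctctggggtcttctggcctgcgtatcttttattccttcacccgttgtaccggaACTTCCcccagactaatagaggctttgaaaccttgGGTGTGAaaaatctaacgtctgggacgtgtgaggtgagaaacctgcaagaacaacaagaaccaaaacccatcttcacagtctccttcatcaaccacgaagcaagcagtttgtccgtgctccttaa
Prf1 promoter (chr10:61297586-61297885, plus strand): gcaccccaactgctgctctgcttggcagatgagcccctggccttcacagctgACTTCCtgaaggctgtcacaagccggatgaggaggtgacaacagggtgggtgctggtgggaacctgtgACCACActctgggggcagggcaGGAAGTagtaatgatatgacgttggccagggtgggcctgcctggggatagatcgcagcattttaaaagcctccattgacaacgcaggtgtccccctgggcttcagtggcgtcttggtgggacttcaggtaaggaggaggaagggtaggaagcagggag
Nkg7 promoter (chr7:43436888-43437187, plus strand): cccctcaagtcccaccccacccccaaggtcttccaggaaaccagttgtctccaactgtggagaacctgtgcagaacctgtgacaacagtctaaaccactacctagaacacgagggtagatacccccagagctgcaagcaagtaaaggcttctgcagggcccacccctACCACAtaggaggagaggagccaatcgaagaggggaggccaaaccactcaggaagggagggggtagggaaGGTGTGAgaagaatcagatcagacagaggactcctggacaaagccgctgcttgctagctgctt
Serpinb9 promoter (chr13:33004291-33004590, plus strand): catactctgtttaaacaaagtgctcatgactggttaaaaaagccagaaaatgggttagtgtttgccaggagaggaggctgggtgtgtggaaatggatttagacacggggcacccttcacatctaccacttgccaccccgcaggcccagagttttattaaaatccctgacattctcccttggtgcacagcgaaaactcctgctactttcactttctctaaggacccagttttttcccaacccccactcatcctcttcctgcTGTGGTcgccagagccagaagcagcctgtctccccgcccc
A RUNX match stood in the windows of Gzma, Gzmb, Prf1 and Nkg7 before the start, at positions -50 to -45 in Gzma and at -93 to -88 and -34 to -29 in Gzmb. Genes whose groups overlapped held RUNX matches too: Gzmm at -247 to -242 and Srgn at -202 to -197, each in 1 of 2 windows, and Serpinb9 after the start, at 11 to 16. A T-box match stood in Gzmk at -75 to -69, in Nkg7 at -13 to -7 and in a window of Gzmm at -189 to -183. Gzmb alone of the 11 windows held an AP-1 match, at -58 to -52. Among 32817 windows of the same length, 16.8% held the RUNX letters, 3.98% the T-box letters, 7.81% the AP-1 letters and 23.8% the ETS letters; of the 11 windows of these genes 7, 3, 1 and 3 did. A match describes letters only and shows no binding.

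Transcripts of granzymes A, B and K were far higher in the FTO-overexpressing lungs, and that of granzyme M was not separated between the groups. Gzma (ENSMUSG00000023132), which encodes a tryptase of NK and T cells, was at 19.7, 8.14 and 8.80 CPM in the 3 wild-type libraries and at 82.2, 96.0 and 160.4 CPM in the 3 overexpressing ones. Every overexpressing library lay above every wild-type one, and the lowest of them was 4.17 times the highest wild-type value. The fitted difference was 9.24-fold (95% interval 4.85 to 17.6).

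Gzmb (ENSMUSG00000015437), a protease that cleaves BID in target cells, was at 6.01, 2.05 and 2.92 CPM in wild type against 19.9, 37.7 and 91.5 CPM. The groups did not overlap, but the overexpressing libraries differed among themselves by 4.61 times, with replicate 3 highest. The fitted difference was 13.6-fold (95% interval 4.88 to 37.9).

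Gzmk (ENSMUSG00000042385), a granzyme of memory-like CD8 T cells, had the widest spread of the 9 genes. Its wild-type level was near the limit of detection, with 4, 7 and 21 counts, or 0.217, 0.368 and 1.16 CPM. In the overexpressing libraries it reached 4.52, 8.64 and 25.7 CPM, from 89, 152 and 557 counts. The fitted difference was 22.3-fold, with a 95% interval from 5.96 to 83.2. Gzma and Gzmk are direct neighbours in the RefSeq gene order, with 0 protein-coding genes between them.

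Gzmm (ENSMUSG00000054206), the metase of NK cells and innate-like T cells, was weakly expressed in both groups, with 13 to 43 counts per library. It stood at 0.759, 0.683 and 1.26 CPM in wild type and at 0.965, 1.02 and 1.98 CPM in the overexpressing lungs. These ranges overlapped, and the fitted difference of 1.48-fold had a 95% interval from 0.753 to 2.89.

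Transcripts of perforin and of the granule membrane protein NKG7 were higher as well. Prf1 (ENSMUSG00000037202) was at 5.36, 2.52 and 2.81 CPM in wild type and at 11.1, 13.9 and 22.3 CPM in the overexpressing lungs, with no overlap. Its fitted difference was 4.43-fold (95% interval 2.46 to 7.97), the lowest of the 5 separated genes. Nkg7 (ENSMUSG00000004612), which encodes a granule membrane protein needed for efficient release, was at 8.45, 3.62 and 4.73 CPM against 29.9, 41.0 and 76.7 CPM. It was 8.79-fold higher (95% interval 4.40 to 17.6), again with the groups apart.

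**Figure D1:**
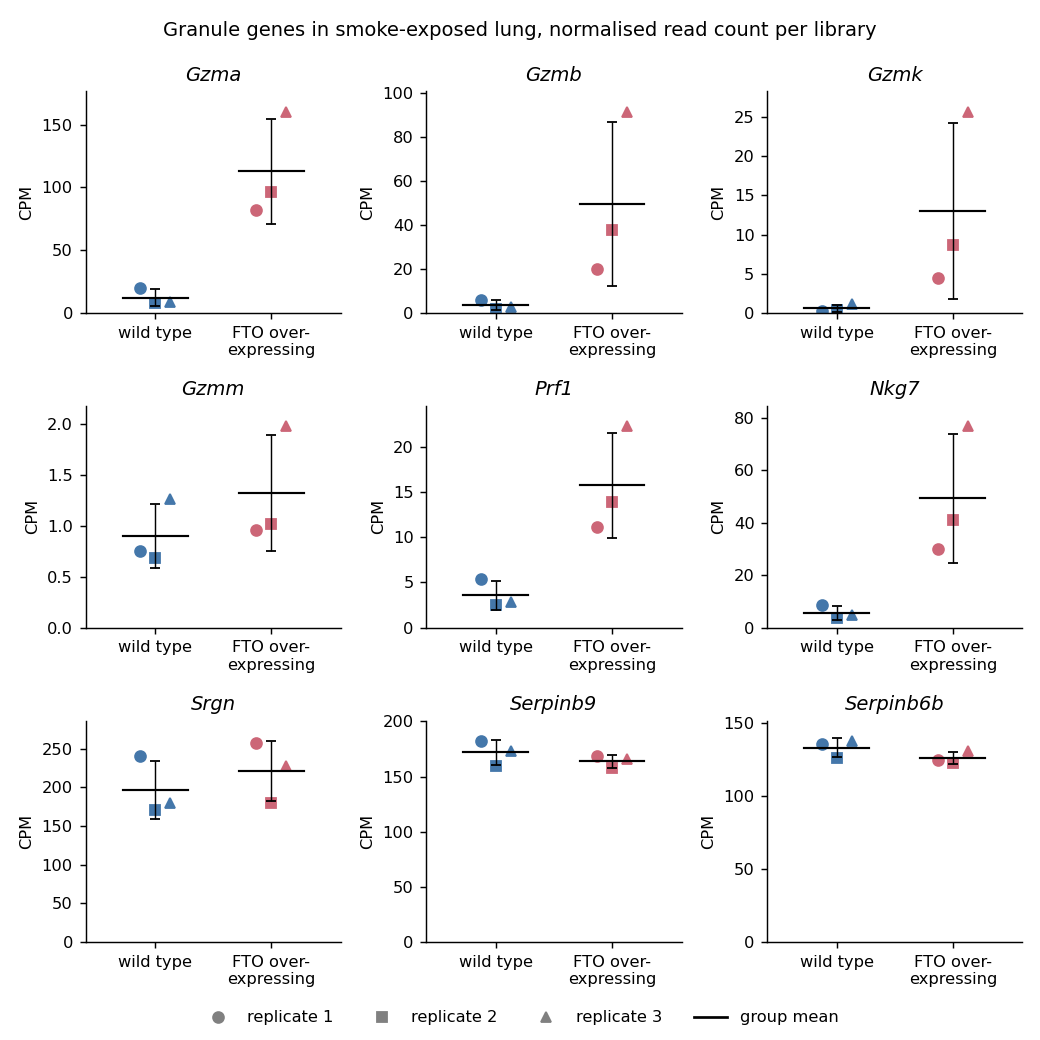
Normalised read count (CPM, vertical axis, each panel from 0) of the 9 granule genes in the 3 wild-type (blue) and 3 FTO-overexpressing (red) libraries; symbols mark replicate numbers, horizontal bars the group mean and error bars the SD (n = 3). Gzma, Gzmb, Gzmk, Prf1 and Nkg7 separate by group, with overexpressing replicate 3 highest, and Gzmm, Srgn, Serpinb9 and Serpinb6b overlap.

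The serglycin gene and both serpin genes stood at similar levels in the groups. Srgn (ENSMUSG00000020077) was at 240.2, 170.8 and 180.2 CPM in wild type and at 256.6, 179.3 and 227.3 CPM in the overexpressing lungs. Replicate 1 was the highest library in both groups, and the fitted ratio of 1.12 had a 95% interval from 0.853 to 1.48. Serglycin is also made by mast cells, neutrophils, platelets and macrophages. The summed markers of neutrophils (7 of 7 found, 1154 to 1621 against 955.1 to 2122 CPM), platelets (4 of 4 found, 116.7 to 149.3 against 99.1 to 178.9 CPM) and alveolar macrophages (6 of 6 found, 1735 to 2565 against 1148 to 1946 CPM) overlapped between the groups. Those of mast cells (7 of 7 found) ran from 196.9 to 204.7 CPM in wild type and from 206.4 to 232.6 CPM in the overexpressing lungs, most of it Kit, at 191.1 to 202.8 and 200.6 to 225.0 CPM. The mast cell proteases Cma1, at 0.0550 to 0.704 against 1.01 to 1.65 CPM, and Cpa3, at 0.220 to 1.05 against 1.27 to 2.10 CPM, were separated. So was the receptor gene Fcer1a, at 0.275 to 0.867 against 0.915 to 1.29 CPM. The protease gene Mcpt4, at 0.578 to 1.73 against 0.711 to 1.06 CPM, overlapped. Ms4a2, at 0.605 to 1.73 against 1.68 to 2.54 CPM, overlapped too, and Tpsb2 was at 0 in at least 1 library. Apart from Kit these genes had low counts, for Cma1 13, 9 and 1 in wild type against 20, 29 and 22. The part of these cell types in the level of Srgn was not tested.

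Serpinb9 (ENSMUSG00000045827), the inhibitor of granzyme B, was at 182.5, 159.8 and 173.5 CPM in wild type and at 168.3, 157.5 and 166.2 CPM in the overexpressing lungs. Serpinb6b (ENSMUSG00000042842), a mouse inhibitor of granzyme A, was at 135.5, 125.8 and 137.6 CPM against 124.7, 122.1 and 130.4 CPM. Both ranges overlapped. The fitted ratios were 0.954 for Serpinb9 (95% interval 0.839 to 1.08) and 0.946 for Serpinb6b (95% interval 0.840 to 1.06). The serpin genes are direct neighbours in the RefSeq gene order and have close paralogs, among which reads can be shared. Gzma and Gzmb transcripts were higher while both serpin transcripts stayed level. Gzmb CPM per Serpinb9 CPM ran from 0.0128 to 0.0330 in wild type and from 0.118 to 0.550 in the overexpressing libraries. Gzma per Serpinb6b ran from 0.0640 to 0.145 and from 0.659 to 1.23. Such ratios are not corrected for transcript length and compare libraries, not the abundance of the genes. In whole lung RNA they also do not show which cells made the serpin RNA, so they give no balance within a cell.

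The 9 genes thus fell into 5 with separated groups, all higher, and 4 with overlap. Among all genes tested, 7.96% had every overexpressing library above every wild-type one, and nothing is read from the share of the 9. In the fit across all genes (edgeR, quasi-likelihood test with Benjamini-Hochberg adjustment) 0 of the 9 had an adjusted p under 0.05, against 0.0942% of all genes. At an unadjusted p under 0.05 the count was 5, all higher, where 5.77% of all genes were higher with such a p. The edgeR adjusted p of Gzma, Gzmb, Gzmk, Prf1 and Nkg7 lay between 0.0513 and 0.117, and that of the other four between 0.766 and 0.863. DESeq2 put the same 5 past an adjusted p of 0.05 (2.54% of all genes), as did edgeR with no filter on low counts (0.972%), and limma-voom 0 (0.0294%). Leaving out 1 library gave 1 (Gzma) without wild-type replicate 1 (background 0.0633%), 3 (Gzma, Gzmb and Nkg7) without overexpressing replicate 1 (0.282%) and 0 without wild-type replicate 2 (0.00575%), wild-type replicate 3 (0.00576%), overexpressing replicate 2 (0.00581%) or overexpressing replicate 3 (0.0345%).

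**Figure D2:**
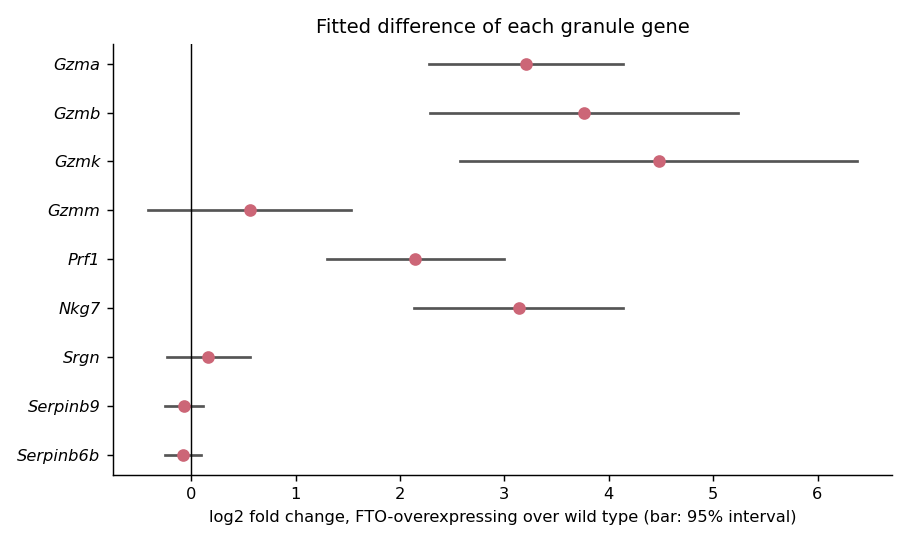
Fitted log2 fold change (horizontal axis, FTO-overexpressing over wild type, 3 libraries each) of each granule gene; points are the edgeR estimate and bars its 95% interval. The estimates run from -0.08 for Serpinb6b to 4.48 for Gzmk, and the intervals of Gzmm, Srgn and both serpins include 0.

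Within the overexpressing group replicate 3 was the highest library for each of Gzma, Gzmb, Gzmk, Gzmm, Prf1 and Nkg7, and the size of the differences leaned on it. Without it the log2 fold change was 2.86 for Gzma, 2.97 for Gzmb, 3.49 for Gzmk, 1.81 for Prf1 and 2.66 for Nkg7, against 3.21, 3.76, 4.48, 2.15 and 3.14 with all libraries. In wild type, replicate 1 was highest for Gzma, Gzmb, Prf1 and Nkg7, while replicate 3 was highest for Gzmk and Gzmm. Without wild-type replicate 1 the log2 fold change of Gzma was 3.74 and that of Gzmb 4.33. Gzmk had the widest range, from 3.49 without overexpressing replicate 3 to 5.44 without wild-type replicate 3. For Gzmm the value was 0.14 without overexpressing replicate 3 and 0.88 without wild-type replicate 3.

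**Figure D3:**
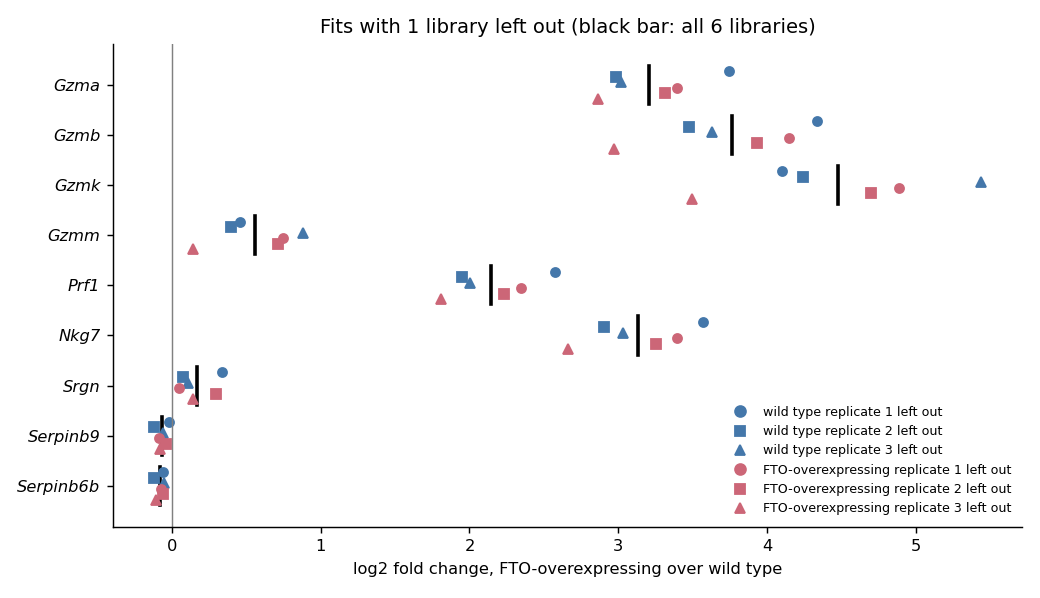
Log2 fold change (horizontal axis) of each granule gene in the 6 fits that leave out 1 library; colour and symbol name the library left out and the black bar is the fit with all 6. The values of Gzma, Gzmb, Gzmk, Prf1 and Nkg7 stay at or above 1.81, and leaving out overexpressing replicate 3 gives the lowest value of each.

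Markers of the cells that carry these granules were higher in the same libraries. The T cell markers (8 of 8 found) summed to 75.1 to 101.4 CPM in wild type and 202.3 to 402.2 CPM in the overexpressing lungs. The CD8 subunit genes Cd8a and Cd8b1 summed to 11.7 to 20.8 against 75.9 to 171.4 CPM. The NK cell markers (6 of 6 found, with Klra4 at 0 in at least 1 library) summed to 5.78 to 14.1 against 21.6 to 25.2 CPM. Without Eomes, which T cells also express, the other 5 summed to 12.6, 4.04 and 3.25 CPM in wild type and 18.95, 16.15 and 11.4 CPM in the overexpressing lungs, and the groups overlapped (a sum added after the data were seen). Of the 6 markers singly, Eomes and Klre1 were separated and Ncr1, Klrb1c, Klra8 and Klra4 overlapped. In overexpressing replicates 1, 2 and 3 the NK receptor gene Ncr1 was at 3.40, 2.96 and 1.98 CPM, and Klrb1c and Klra8 were also highest in replicate 1 and lowest in replicate 3. Klre1, at 2.90, 3.47 and 3.14 CPM, and Klra4, at 1.07, 2.05 and 1.34 CPM, were lowest in replicate 1, and Eomes, at 3.10, 5.40 and 13.8 CPM, was highest in replicate 3 as Gzma was. The part of T, CD8 and NK cells in the granule genes was not tested.

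Markers of some other cell types were higher as well. The summed markers of monocytes (4 of 4 found) were 169.6 to 343.4 CPM in wild type and 378.3 to 498.3 CPM in the overexpressing lungs, and those of plasmacytoid dendritic cells (3 of 3 found) 4.06 to 4.78 and 5.95 to 7.61 CPM. CD4 markers (2 of 2 found) were 9.68 to 19.4 and 22.2 to 43.4 CPM. Within these lists Ly6c2, Ccr2 and Cx3cr1 of monocytes, Ccr9 of dendritic cells and Cd4 were separated singly. The monocyte marker F13a1, at 39.8 to 71.2 against 56.6 to 68.8 CPM, overlapped. So did Siglech of dendritic cells, at 1.08 to 1.87 against 1.76 to 2.90 CPM, and Cd40lg, at 0.596 to 1.42 against 1.25 to 3.69 CPM. Klk1 of the dendritic cell list did not pass the filter on low counts. The gamma delta T cell list (3 of 3 found) summed to 54.7 to 77.5 against 54.6 to 70.6 CPM, most of it Sox13. Its receptor gene Tcrg-C1 was lower in each overexpressing library (1.63 to 2.26 against 0.682 to 1.58 CPM), and Trdc, at 1.65 to 3.03 against 1.29 to 2.10 CPM, overlapped. The summed markers of basophils (3 of 3 found, 1.48 to 3.31 against 3.25 to 7.84 CPM), B cells (4 of 4 found, 42.4 to 112.1 against 69.7 to 81.8 CPM), endothelium (4 of 4 found, 2381 to 2597 against 2230 to 2488 CPM) and red blood cells (4 of 4 found, 8500 to 23180 against 3643 to 33720 CPM) overlapped. The part of these cells in the granule genes was not tested.

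Set against the T cell level, some granule genes went beyond it and others did not. The level was the geometric mean of the 8 T cell markers, which was 9.82 ± 1.68 CPM in wild type and 30.7 ± 12.5 CPM in the overexpressing lungs (SD, n = 3 each). Gzma CPM per T cell level was 1.84, 0.751 and 1.12 in wild type and 3.74, 3.81 and 3.57 in the overexpressing lungs, which were nearly equal on this scale. For Gzmb the ratio was 0.560, 0.189 and 0.370 against 0.905, 1.50 and 2.03, and for Gzmk 0.0202, 0.0339 and 0.147 against 0.206, 0.343 and 0.571. Nkg7 per T cell level was 0.788, 0.334 and 0.600 against 1.36, 1.63 and 1.71, so these 4 genes remained apart between the groups. Prf1 overlapped narrowly, at 0.500, 0.233 and 0.356 against 0.507, 0.553 and 0.496. Gzmm per T cell level was lower in every overexpressing library, at 0.0440, 0.0407 and 0.0441 against 0.0707, 0.0630 and 0.161. So were Srgn, Serpinb9 and Serpinb6b, whose own CPM overlapped between the groups.

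Against the CD8 level, the geometric mean of Cd8a and Cd8b1, no granule gene was higher in every overexpressing library. That level was 7.95 ± 2.24 CPM in wild type and 61.7 ± 23.9 CPM in the overexpressing lungs (SD, n = 3 each). Gzma per CD8 level was 1.95, 1.44 and 1.09 in wild type and 2.18, 1.55 and 1.88 in the overexpressing lungs, and Nkg7 was 0.834, 0.642 and 0.586 against 0.795, 0.661 and 0.897. Both overlapped, as did Gzmb and Gzmk. Prf1 per CD8 level was 0.530, 0.446 and 0.347 in wild type and 0.296, 0.224 and 0.261 in the overexpressing lungs, lower in each of the latter. Gzmm per CD8 level was lower too, at 0.075, 0.12 and 0.16 against 0.026, 0.016 and 0.023. So were Srgn, Serpinb9 and Serpinb6b, whose own CPM overlapped between the groups. Against the summed NK markers, Gzma was 1.40, 1.38 and 1.52 in wild type and 3.73, 4.45 and 6.36 in the overexpressing lungs. Gzmk on that scale was 0.0153, 0.0625 and 0.200 against 0.205, 0.401 and 1.02. With Eomes left out of the sum, Gzma was 1.56, 2.01 and 2.71 against 4.34, 5.94 and 14.0, and Gzmb and Nkg7 also stayed apart, while Gzmk and Prf1 overlapped. All these ratios are descriptions of 1 comparison whose result chose the genes.

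**Figure D4:**
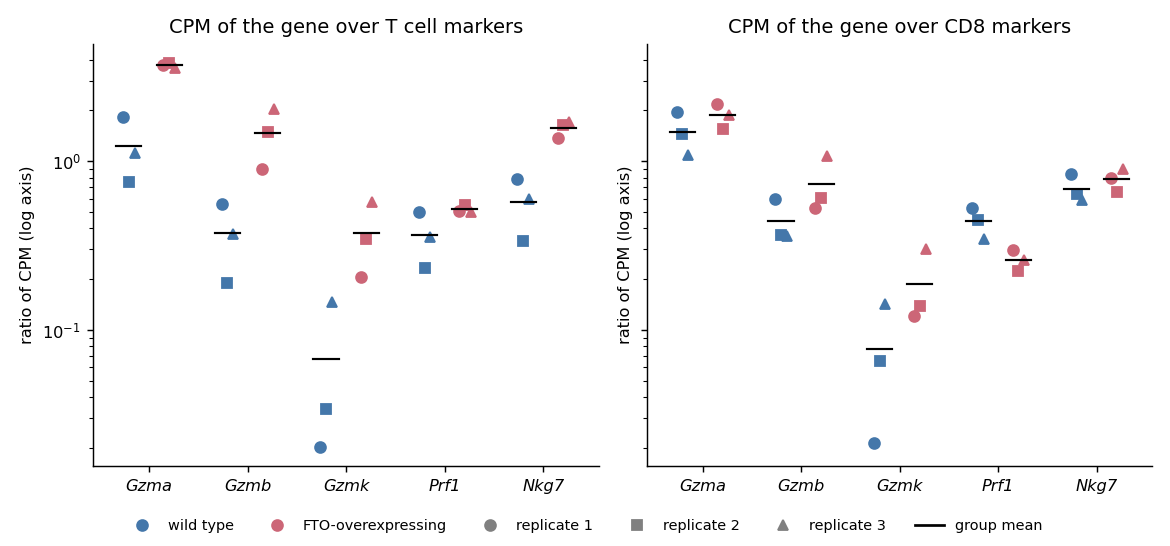
CPM of 5 granule genes divided by the T cell marker level (left) and the CD8 level (right), on a log axis, per wild-type (blue) and FTO-overexpressing (red) library; black bars are group means (n = 3). Over T cell markers Gzma, Gzmb, Gzmk and Nkg7 stay separated by group, and over CD8 markers Prf1 is lower in each overexpressing library and the other four overlap.

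Among the ratios of granule transcripts to Gzma, only that of Prf1 was apart between the groups. Prf1 CPM per Gzma CPM was 0.272, 0.310 and 0.319 in the wild-type libraries and 0.135, 0.145 and 0.139 in the overexpressing ones. The groups did not overlap, with means of 0.300 ± 0.0248 and 0.140 ± 0.00490 (SD, n = 3 each). This restates the smaller fold change of Prf1 than of Gzma given above. Nkg7 per Gzma overlapped, at 0.429, 0.445 and 0.538 against 0.364, 0.427 and 0.478. Gzmb per Gzma was 0.305, 0.252 and 0.331 in wild type and 0.242, 0.393 and 0.570 in the overexpressing lungs, and Gzmk per Gzma 0.0110, 0.0452 and 0.131 against 0.0550, 0.0901 and 0.160. These also overlapped, and replicate 3 had the highest Gzmb and Gzmk share of the overexpressing libraries. The pairs of genes were chosen after the fold changes were seen.

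Among genes that process and fill granules, Ctsw and Cst7 were higher in the overexpressing lungs and most others lay near 0 on the log2 fold change scale. Of 17 other granule and processing genes 11 were tested, 0 had an edgeR adjusted p under 0.05, and 2 were higher and 1 lower at an unadjusted p under 0.05, beside 5.77% and 3.67% of all genes. Their median log2 fold change was -0.06, beside 0.007 over all genes tested. Ctsw, the cathepsin of cytotoxic lymphocytes, was at 5.91, 3.68 and 3.46 CPM in wild type and at 11.5, 21.3 and 29.6 CPM in the overexpressing lungs, with a log2 fold change of 2.26 ± 0.367 (SE). Cst7, the cathepsin inhibitor cystatin F, was at 1.90, 0.893 and 1.26 against 3.66, 3.98 and 7.75 CPM, with a log2 fold change of 1.92 ± 0.401 (SE). Neither overlapped between the groups, and their edgeR adjusted p was 0.0970 and 0.149. Ctsh, a lysosomal aminopeptidase, was lower, at 336.2, 341.2 and 329.4 against 301.0, 269.0 and 282.6 CPM, with a log2 fold change of -0.24 ± 0.0778 (SE) and an edgeR adjusted p of 0.362. Without overlap between the groups, 2 genes of the list were higher and 3 lower, beside 1352 and 1172 of 16989 genes tested. The lower ones were Ctsh, Lamp1 and Cd63. The log2 fold change of Lamp1 was -0.11 and that of Cd63 -0.16, with edgeR adjusted p of 0.788 and 0.611. Ctsc, the protease that activates pro-granzymes, overlapped, at 315.6 to 374.3 CPM in wild type and 303.1 to 363.2 CPM in overexpressing lungs. Many myeloid cells also make it. The other granzymes Gzmc, Gzmd, Gzme, Gzmf, Gzmg and Gzmn did not pass the filter: 4 of these 6 had 0 counts in every library and the highest count of any was 4.

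Genes of granule transport and release mostly lay near 0 on that scale, and Sytl3 did not. Of 17 listed, 16 were found and tested (Vamp7 was not matched), and 0 had an edgeR adjusted p under 0.05, beside 0.0942% of all genes. At an unadjusted p under 0.05, 1 was higher and 0 lower, beside 5.77% and 3.67% of all genes. The median log2 fold change was 0.03. The gene higher at that unadjusted p was Sytl3, which encodes a synaptotagmin-like protein that binds RAB27. Sytl3 was at 2.33, 2.05 and 1.49 CPM against 6.40, 7.45 and 9.08 CPM. Its log2 fold change was 1.96 ± 0.241 (SE), with an edgeR adjusted p of 0.0507. Its relative Sytl1 was at 3.36, 3.20 and 2.37 against 4.07, 4.72 and 3.41 CPM, with a log2 fold change of 0.45 ± 0.233 (SE). Arl8b, a small GTPase that moves lysosomes along microtubules, was at 111.3, 112.2 and 114.6 against 107.3, 98.3 and 105.3 CPM, with a log2 fold change of -0.12 ± 0.0709 (SE). For Lyst, the gene of lysosome size control, the groups overlapped, with a log2 fold change of 0.19 ± 0.115 (SE). These genes are active in many lung cells.

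Relatives of both serpins overlapped between the groups. Of 14 related serpins 6 were tested, and 0 had an edgeR adjusted p under 0.05, beside 0.0942% of all genes. At an unadjusted p under 0.05, 0 were higher and 0 lower, beside 5.77% and 3.67% of all genes. The median log2 fold change was 0.13. Serpina3g, an interferon-inducible serpin, was at 35.7, 33.6 and 20.4 CPM in wild type and at 58.6, 31.6 and 41.1 CPM in the overexpressing lungs. Serpina3n, a secreted serpin that binds granzyme B, was at 44.0, 93.8 and 71.0 against 59.8, 55.2 and 52.2 CPM. Serpinb9b, the neighbour of Serpinb9, was at 1.73, 0.945 and 1.32 against 1.42, 1.99 and 1.84 CPM, and Serpinb8 at 10.8, 15.1 and 14.9 against 15.4, 18.0 and 13.4 CPM. All overlapped. Of 8 relatives that did not pass the filter 7 had 0 counts in every library.

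Transcription factors of the cytotoxic programme were higher in part. Of 12 tested, 1 was higher with an edgeR adjusted p under 0.05, beside 0.0942% of all genes in either direction. At an unadjusted p under 0.05, 7 were higher, beside 5.77% of all genes. In 7 every overexpressing library lay above every wild-type one, beside 7.96% of all genes. The median log2 fold change was 0.34, beside 0.007 over all genes tested. The gene that passed was Tbx21, which encodes T-bet, at 2.49, 1.63 and 1.70 CPM against 10.2, 14.9 and 24.1 CPM, 8.44-fold higher (95% interval 4.77 to 14.9; edgeR adjusted p = 0.0361). That call was lost, with the direction kept, without any 1 library except overexpressing replicate 1. The edgeR adjusted p was 0.0567, 0.183 and 0.161 without wild-type replicates 1, 2 and 3, and 0.147 and 0.0602 without overexpressing replicates 2 and 3. Eomes, the T-box factor related to T-bet, was at 1.52, 1.84 and 2.53 against 3.10, 5.40 and 13.8 CPM, with a log2 fold change of 1.92 ± 0.539 (SE); it also stands among the NK markers above. Id2, an inhibitor of E proteins, was at 82.3, 86.2 and 73.4 against 123.3, 128.8 and 151.8 CPM, with a log2 fold change of 0.74 ± 0.106 (SE). Stat4, which signals from interleukin 12, was at 10.1, 7.25 and 5.22 against 18.2, 18.3 and 27.9 CPM, and Runx3, a RUNX factor of CD8 T cells, at 6.94, 6.78 and 5.50 against 10.7, 11.5 and 18.5 CPM. The edgeR adjusted p of Eomes, Id2, Stat4 and Runx3 was 0.266, 0.0746, 0.114 and 0.161.

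**Figure D5:**
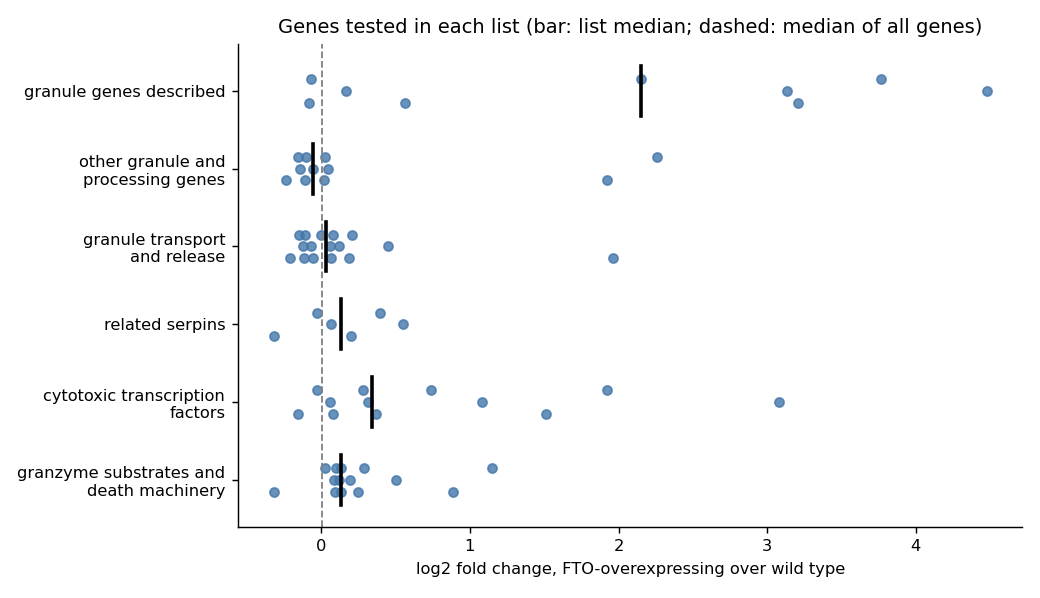
Log2 fold change (horizontal axis, FTO-overexpressing over wild type) of each gene tested in the granule set and in 5 lists of related genes; black bars are list medians and the dashed line the median of all genes tested, 0.007. Most processing, transport and serpin genes lie near 0. Among them Ctsw, Cst7 and Sytl3 lie farthest from 0, followed by Serpina3g at 0.55 and Sytl1 at 0.45.

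Transcripts of granzyme substrates and death machinery, which many lung cells make, were measured in the whole tissue. Of 14 genes tested, 0 had an edgeR adjusted p under 0.05, 3 were higher and 1 lower at an unadjusted p under 0.05 (5.77% and 3.67% of all genes), and the median log2 fold change was 0.13. Lmnb1, the lamin B1 gene, was at 32.5, 35.3 and 31.3 CPM against 51.2, 55.2 and 76.8 CPM, and Hmgb2, a chromatin protein cleaved by granzyme A, at 70.8, 60.2 and 42.7 against 108.3, 101.7 and 175.6 CPM. Both are also highly expressed in dividing cells. Mcl1, a survival protein cleaved by granzyme B, was at 534.2, 457.2 and 450.3 against 410.0, 354.7 and 393.5 CPM. These 3 genes did not overlap between the groups, and their edgeR adjusted p lay between 0.107 and 0.365.

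Among the genes outside these lists, 6 had profiles nearest to the mean profile of Gzma, Gzmb, Gzmk, Prf1 and Nkg7. Likeness was the root-mean-square difference of mean-centred log2 CPM over the 6 libraries, among 13340 genes. The nearest was Klrg1, a receptor of differentiated effector lymphocytes, at 0.229, followed by Ms4a4b, a membrane protein gene of T cells, at 0.314. Klrc1, the NKG2A receptor gene, lay at 0.373, the chemokine gene Ccl5 at 0.383, the NKG2D receptor gene Klrk1 at 0.455 and the T cell adaptor gene Themis at 0.501. Of the 5 genes behind the profile, Nkg7 was nearest to it at 0.136 and Gzmk farthest at 0.724. Ms4a4b was at 31.6, 20.8 and 18.3 CPM in wild type and at 97.5, 144.0 and 233.5 CPM in the overexpressing lungs. The mean profile was higher in the overexpressing libraries and highest in their replicate 3. Genes picked for nearness to it share these features through the rule, so their likeness supports nothing further.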

How the data were processed

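Polyadenylated RNA of 6 lung samples was sequenced after TRIzol extraction and a stranded Illumina library kit, per the labels' protocols. The submitters' processing notes name fastp, HISAT2 and StringTie without versions; the genome build, annotation and strand setting of the counting were not given in these sources. The authors deposited expected counts, estimated reads per gene not scaled to library size, in 1 table of 57180 rows. Rows with no gene symbol (525) took 0.119% to 0.143% of a library and stayed in library sizes under their gene identifiers.

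Counts were rounded and analysed in R 4.3.3 with edgeR 4.0.16 (default filter, TMM scaling, quasi-likelihood test, group as the only term, Benjamini-Hochberg adjustment over 16989 genes, threshold 0.05). CPM values use TMM library sizes; 95% intervals and SE were derived from each fold change and its F statistic, and cover the spread between libraries. The common biological coefficient of variation was 0.190. The procedure was tested on simulated counts. The granule genes, lists and tests were chosen with earlier results of these data known. The naming rule took all 9 granule genes and up to 4 genes a list by smallest p. Ctsc, Eomes, Lamp1 and Cd63 were added after their values were seen. The rule also took 6 nearest profiles among genes with an average log2 CPM of at least 1 (0.25 was added to CPM before the log). Of 156 list entries 155 were found, and 1 gene of the substrate list is not reported here. A geometric mean was planned for NK markers, but a marker at 0 in a library left none, so their sum was used. Alternatives were RLE, upper-quartile and no scaling, no filter, a replicate block, DESeq2 1.42.0, limma-voom (limma 3.58.1), each library left out, and a threshold of 0.1; an NK marker sum without Eomes was added after the data were seen.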

Additional observations from a re-analysis of the deposited data

How the results depend on the processing

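Over 13 alternative fits each of the 9 genes kept the sign of its log2 fold change. With no filter, 287 genes passed in all and 5 of the granule genes; DESeq2 gave 423 and 5, limma-voom 5 and 0, and a threshold of 0.1 gave 70 and 2. In fits without 1 library the number of all genes ran from 1 to 49 and that of granule genes from 0 to 3. In other granule and processing genes 2 passed with no filter, 2 with DESeq2, 1 at 0.1 and 0 to 1 without 1 library; in transport and release 1, 1, 1 and 0 to 1. For transcription factors 5 passed with no filter, 5 with DESeq2, 2 at 0.1, 0 with limma-voom and 0 to 1 without 1 library, and for granzyme substrates 2 with no filter and 2 with DESeq2. The median of the transport list was 0.091 without wild-type replicate 1 and -0.028 without wild-type replicate 2. RLE, upper-quartile and total-count scaling changed no count by over 1.5 times. The cause of these differences was not tested.

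With the replicate number as a block, 2 genes passed in all, 1 of the granule genes (Gzmk, log2 fold change 4.46, edgeR adjusted p = 0.0129) and 0 transcription factors. The numbers share no stated source, so the block rests on no pairing given by the labels. Deviations of same-numbered libraries correlated at 0.118, -0.323 and -0.331 over genes. Across other pairs the range was -0.21 to 0.451, highest for wild-type replicate 3 with overexpressing replicate 2. In counts the closest pair was replicate 1 of both groups. The cause of these likenesses was not tested. Low counts limit Gzmm and, in wild type, Gzmk.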
